A study of Sus scrofa with 6 samples.

Results

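Intermediate filament genes were followed across 2 kinds of pig cells: simple epithelial keratins, vimentin, desmin, nestin and the nuclear lamins. The 10 symbols KRT8, KRT18, KRT19, KRT7, VIM, DES, NES, LMNA, LMNB1 and LMNB2 were looked up among the Ensembl pig gene IDs of the expression table, and 9 matched a row of the 20131 genes in all. KRT19 matched no row by symbol and was not analysed here. The first group held 4 libraries of pgEpiSC, pre-gastrulation epiblast stem cells of Sus scrofa, which the labels assign to the epiblast at embryonic day 10. The second held 2 libraries of pEF, porcine embryonic fibroblasts of fetal stage, embryonic day 30. No treatment, genotype or sex is given for either group, and the labels do not say which line, animal or culture each library came from. The p-values behind the calls below therefore measure the spread between these libraries only.

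Intermediate filaments are ropes of coiled-coil proteins that give cells and nuclei mechanical strength. Keratins assemble only as pairs of a type I with a type II chain; KRT8 (type II) with KRT18 (type I) is the first pair of the embryo and the usual pair of simple epithelia. Mesenchymal cells build their filaments from the type III protein vimentin, muscle cells add desmin, and neural and other progenitors add nestin, which co-assembles with vimentin. Lamins line the inside of the nuclear envelope: the B types, LMNB1 and LMNB2, are made by nearly all cells, whereas lamins A and C, both products of LMNA, are low in early embryos and increase as tissues differentiate.

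Expression was measured by strand-specific RNA-seq of total RNA depleted of ribosomal RNA and is given as TPM, a level per transcript length and relative to the rest of the library. Totals over the table ran from 157288 to 320206 TPM for pgEpiSC and were 93556 and 145611 for pEF. TPM over all features of a library sum to 1000000. In every library most of the TPM thus lay outside the listed genes, and more so in pEF. Which features held it is not given, and the levels and folds as deposited depend on that part. TPM keeps no read depth, so the depth behind each value is unknown. Median-ratio scaling divides each library by the median ratio of its genes to their geometric means over the libraries. Only tested genes detected in every library enter that median. It gave pgEpiSC factors of 0.714, 2.15, 1.49 and 0.727 (libraries 1 to 4) and pEF factors of 0.587 and 0.970. As deposited, the values of pgEpiSC libraries 2 and 3 were thus generally above those of libraries 1 and 4. A gene is said to be called where limma on log2(TPM + 1) gave a Benjamini-Hochberg adjusted p below 0.05 over 10424 tested genes; 18.0% of these were called higher in pgEpiSC and 9.43% lower, 27.4% in all. Across the tested genes the median log2 fold lay at 0.48 on the deposited scale and at 0.06 after scaling, and the higher share of the calls was 65.6% and 49.0%. The 6 epithelial markers summed to 59.4 to 341 TPM in pgEpiSC and to at most 0.725 TPM in pEF, and the 5 epiblast markers to 394 to 1673 TPM and at most 0.613 TPM. The 7 fibroblast markers found summed to at most 6.33 TPM in pgEpiSC and to 469 and 1282 TPM in pEF. All 11 of the former and 3 of the latter reached 1 TPM in 1 group alone, so their direction was fixed by the filter and no count of calls is given.

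All 9 genes passed the filter of at least 1 TPM in at least 2 libraries. KRT8, KRT18, KRT7 and LMNB2 reached that level in fewer than 2 pEF libraries and so passed through pgEpiSC, which fixes their direction in part. The genes were selected on their TPM and on the pgEpiSC against pEF contrast of these same libraries, so their levels and folds are given as a description and no p is attached to them.

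KRT8 and KRT18 were among the well-expressed genes of pgEpiSC and close to 0 in the fibroblasts. KRT8 stood at 69.7, 166, 70.3 and 37.0 TPM in the stem cells (libraries 1 to 4) and at 0.0279 and 0.276 TPM in the fibroblasts (libraries 1 and 2). Its rank among the 20131 genes lay between 230 and 488 in pgEpiSC and was 12760 and 10893 in pEF. KRT18, its partner, stood at 35.8, 146, 36.0 and 15.3 TPM against 0.00991 and 0.0461 TPM. For both genes pgEpiSC library 2 was the highest and library 4 the lowest, and every pgEpiSC library lay far above both pEF libraries. In bulk samples fewer cells that express a gene and less RNA per cell cannot be told apart.

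KRT7, a second type II keratin of simple and glandular epithelia, was a minor species. The pgEpiSC libraries held 2.40, 10.7, 3.79 and 1.38 TPM and the pEF libraries 0.530 and 0.550 TPM, so that the lowest pgEpiSC library was above both fibroblast libraries by less than 1 TPM. In the RefSeq annotation of Sscrofa11.1 the KRT7 entry is typed as a long non-coding RNA, and which transcript the authors' row counts is not given in the sources used here. In that annotation KRT8 and KRT18 lie side by side on chromosome 5 with 0 protein-coding genes between them, and KRT7 is on the same chromosome with 28 between it and KRT8. Keratin genes are a large family with similar sequences, and reads shared between copies could have been divided among rows by the authors' counting.

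The log2 folds (pgEpiSC minus pEF, of log2(TPM + 1), so that folds of genes near 0 come out too small) were 6.04 ± 0.54 (SE) for KRT8, 5.37 ± 0.59 for KRT18 and 1.58 ± 0.57 for KRT7. With each library left out in turn, KRT8 kept a fold between 5.65 and 6.37 and KRT18 one between 4.77 and 5.83. KRT7 was no longer called without pgEpiSC replicate 3 (1.56), pEF replicate 1 (1.57) or pEF replicate 2 (1.59).

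The spread among the pgEpiSC libraries was wide for the keratins. As deposited, the highest library exceeded the lowest by 9.54-fold for KRT18, 7.76-fold for KRT7 and 4.49-fold for KRT8, against 4.58-fold for LMNB2 and 2.21-fold for VIM. After median-ratio scaling these ratios were 3.23, 2.62, 2.07, 1.52 and 1.49. On that scale DES was also wide at 3.13, and NES, LMNA and LMNB1 were at 1.32, 1.30 and 1.36. Scaled, KRT8 stood at 97.5, 77.3, 47.1 and 50.9 and KRT18 at 50.2, 67.8, 24.1 and 21.0 in pgEpiSC libraries 1 to 4. On that scale libraries 1 and 2 were high and libraries 3 and 4 low for both genes. The ratio of KRT8 to KRT18 within a library, which no scaling alters, was 1.94, 1.14, 1.95 and 2.42 in pgEpiSC. The excess of KRT8 over KRT18 transcripts was thus smallest in library 2. The same ratio in pEF, 2.81 and 5.98, rests on levels near 0 and is not compared.

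The markers found for other lineages that use this keratin pair were low, except TFAP2C and FOXA2 in pgEpiSC. Of 5 trophectoderm markers, all in the table, the summed level was 0.326 to 3.37 TPM in pgEpiSC and 0.267 and 0.425 TPM in pEF, and most of it in pgEpiSC was TFAP2C. CDX2 did not exceed 0.0331 TPM and HAND1 did not exceed 0.0426 TPM in any library. The summed trophectoderm level was highest in pgEpiSC library 2, where KRT8 and KRT18 were also highest as deposited; its part in the keratin values was not tested. Of 4 hypoblast markers 3 were found. GATA4 and GATA6 stayed below 1 TPM throughout, while FOXA2 was at 1.47 to 3.73 TPM in pgEpiSC against 0.00687 and 0.00357 TPM in pEF. FOXA2 reached 1 TPM in pgEpiSC alone, so the filter fixed its direction. Of 4 mesothelial markers only WT1 was found, and it did not exceed 0.0718 TPM.

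**Figure D1:**
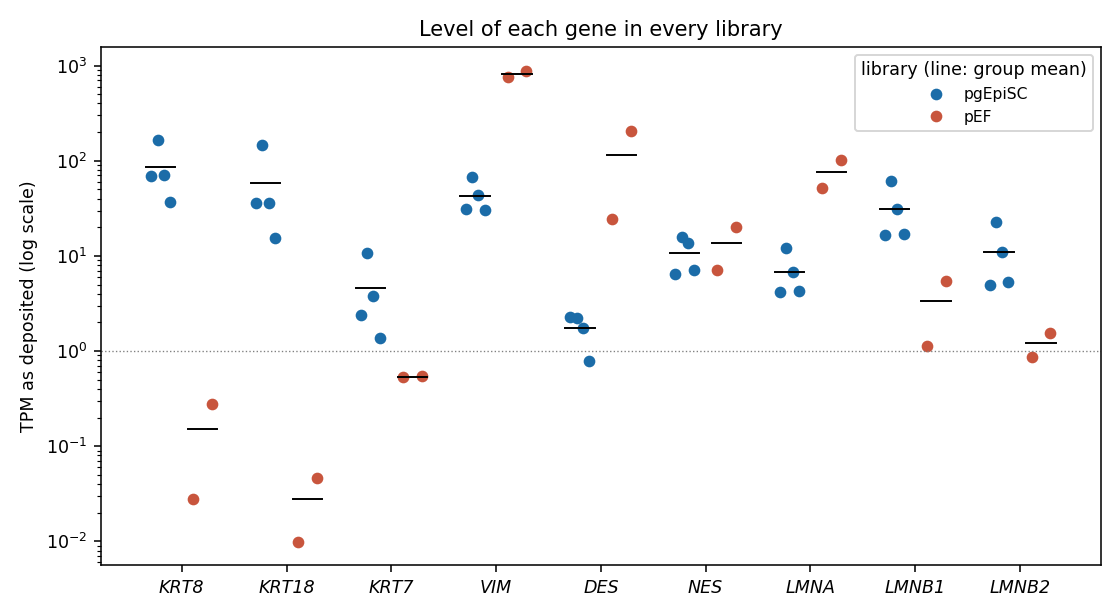
TPM as deposited (log axis) of the 9 genes in each of the 4 pgEpiSC libraries (blue, replicates 1 to 4 from left to right) and the 2 pEF libraries (red, replicates 1 and 2), with black lines at the group means and a dotted line at 1 TPM. The groups overlap for NES alone; KRT8 and KRT18 lie between 15.3 and 166 TPM in pgEpiSC and at most 0.276 TPM in pEF.

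VIM was expressed in both cell types and was far higher in the fibroblasts. Its levels were 31.0, 67.4, 43.6 and 30.5 TPM in pgEpiSC, and 759 and 879.5 TPM in pEF, a mean of 43.1 ± 17.3 (SD, n = 4) against 819 ± 85.1 TPM (SD, n = 2), or 19.0-fold higher in pEF. It ranked 7th and 16th of all genes in the fibroblast libraries and between 534 and 575 in pgEpiSC. The pgEpiSC libraries were nonetheless not without vimentin: in library 4 VIM was at nearly the level of KRT8, 30.5 against 37.0 TPM.

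Fibroblast markers were low but measurable in every pgEpiSC library. The summed level of the 7 fibroblast markers found was 3.17, 4.95, 1.91 and 6.33 TPM in pgEpiSC libraries 1 to 4, against 469 and 1282 TPM in pEF. As deposited, library 4 had the highest of these sums and the lowest VIM, and library 3 had the lowest sum and the second highest VIM. After scaling VIM stood at 43.4, 31.3, 29.2 and 42.0 in the same libraries and the marker sum at 4.44, 2.30, 1.28 and 8.71. On that scale both were higher in libraries 1 and 4 than in libraries 2 and 3. The part of fibroblast RNA in the VIM values of pgEpiSC was not tested.

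DES, the muscle intermediate filament, was low in pgEpiSC and differed widely between the fibroblast libraries. The pgEpiSC libraries held 2.30, 2.21, 1.75 and 0.793 TPM, the pEF libraries 24.5 and 204 TPM. The groups did not overlap, but the pEF mean of 114 ± 127 TPM (SD, n = 2) is set by library 2. The log2 fold was -4.75 ± 0.61 (SE); it was -3.25 without pEF replicate 2 and -6.26 without pEF replicate 1.

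Summed muscle markers were also higher in the pEF library with more desmin, as were summed fibroblast markers. The 8 skeletal and cardiac muscle markers found summed to 0.875 TPM in pEF library 1 and to 24.1 TPM in library 2, with 1.48 to 3.57 TPM in pgEpiSC. ACTC1, cardiac actin, was at 0.491 and 17.1 TPM in the 2 pEF libraries, MYF5, a myogenic factor, at 0.234 and 3.06 TPM, and TNNT2, cardiac troponin T, at 0.0677 and 1.80 TPM. MYOD1 was listed at 0 in pEF library 1 and at 0.437 TPM in library 2. The 5 smooth muscle markers, ACTA2 and TAGLN foremost, summed to 958 and 3027 TPM in pEF and to 5.32 to 25.5 TPM in pgEpiSC. After scaling, pEF libraries 1 and 2 stood at 1.49 and 24.8 for the skeletal and cardiac sum and at 1633 and 3119 for the smooth muscle sum. DES was then at 41.8 and 211. The fibroblast marker sum was 469 and 1282 TPM as deposited and 800 and 1321 after scaling. The part of the muscle genes in the DES values was not tested.

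NES was the one gene whose libraries overlapped between the groups as deposited. Its pgEpiSC values were 6.50, 15.8, 13.8 and 7.06 TPM and its pEF values 7.05 and 20.1 TPM, with a log2 fold of -0.24 ± 0.55 (SE), which was not called. After median-ratio scaling the pgEpiSC libraries drew together at 9.10, 7.35, 9.21 and 9.71 and the pEF libraries stood at 12.0 and 20.8, so that the groups no longer overlapped. The scaled fold was -0.78 ± 0.24 and was called lower, and without pEF replicate 2 the fold as deposited was 0.46. The call for NES thus depended on the scaling. Its direction turned with that 1 library left out as deposited, but not after scaling, where the fold was then -0.43. Of the 3 neural progenitor markers found, PAX6 and FABP7 did not exceed 0.324 TPM in any library, and MSI1, an RNA-binding protein of progenitors, ranged from 1.05 to 5.06 TPM in the stem cells against 0.0261 and 0.0411 TPM.

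Within a library the shares of the 6 cytoplasmic filament genes give a composition that no scaling alters. KRT8, KRT18 and KRT7 together made up 73.0, 79.1, 65.1 and 58.3% of their summed TPM in the 4 stem cell libraries against 0.0718 and 0.0790% in the fibroblasts. VIM made up 21.0, 16.5, 25.8 and 33.2% in pgEpiSC and 95.9 and 79.6% in pEF, where DES held most of the rest of library 2 (18.5%, against 3.10% in library 1). Keratin transcripts were the majority in every pgEpiSC library and under 0.1% in both fibroblast libraries. The share of KRT8 was nearly level over the pgEpiSC libraries (47.2, 40.7, 41.5 and 40.2%), whereas that of KRT18 ran from 16.6% in library 4 to 35.7% in library 2. NES held 3.87 to 8.14% in pgEpiSC and 0.891 and 1.82% in pEF. The sum of the 6 genes was 204 ± 140 TPM (SD, n = 4) in pgEpiSC and 948 ± 222 TPM (SD, n = 2) in pEF.

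**Figure D2:**
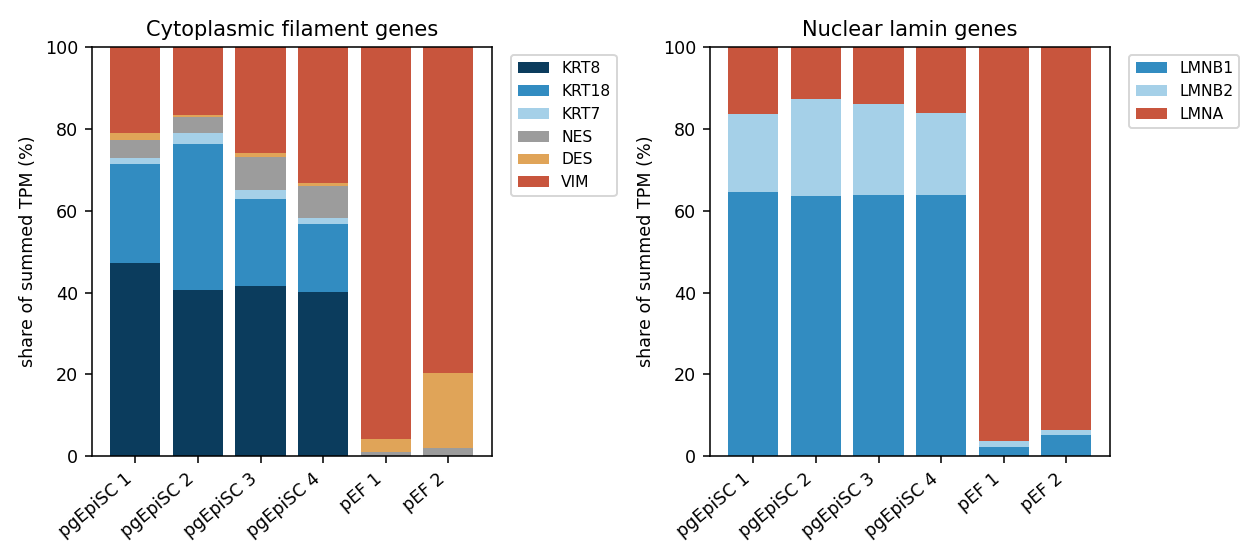
Share of summed TPM (percent) within each library, for the 6 cytoplasmic filament genes (left) and the 3 lamin genes (right); each bar is 1 library. Keratins (blues) hold 58.3 to 79.1% of the left bars in pgEpiSC and under 0.1% in pEF, and LMNA (red, right) holds 12.7 to 16.3% in pgEpiSC and 93.5 and 96.3% in pEF.

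The lamins changed over from B type to A type between the 2 cell types. LMNA, which encodes lamins A and C, held 4.20, 12.2, 6.74 and 4.25 TPM in the stem cells and 51.6 and 102 TPM in the fibroblasts, 11.2-fold higher by the means. LMNB1 held 16.7, 61.1, 31.1 and 17.0 TPM in the stem cells and 1.13 and 5.51 TPM in the fibroblasts, and LMNB2 at 4.96, 22.7, 10.9 and 5.34 TPM against 0.869 and 1.55 TPM. For none of the 3 did the libraries of the groups overlap, and both B types were higher in every pgEpiSC library. The ratios of the means were 9.48 for LMNB1 and 9.08 for LMNB2, both higher in pgEpiSC. TPM per gene does not separate lamin A from lamin C.

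The lamin composition was steadier than the deposited level of any single lamin, which carries the scale of its library. LMNB1 made up 64.5, 63.6, 63.8 and 64.0% of the 3 lamins in pgEpiSC libraries 1 to 4. Its level varied 3.66-fold among them as deposited and 1.36-fold after median-ratio scaling. LMNB2 made up 19.2 to 23.7% and LMNA 12.7 to 16.3% there, and their scaled levels varied 1.52-fold and 1.30-fold. In pEF, LMNA held 96.3 and 93.5%, LMNB1 2.10 and 5.05% and LMNB2 1.62 and 1.42%. The ratio of LMNB1 to LMNB2 was 2.69 to 3.36 in pgEpiSC and 1.30 and 3.56 in pEF, so the fibroblast libraries lay on either side of the stem cells. The 3 lamins summed to 49.3 ± 32.9 TPM (SD, n = 4) in pgEpiSC and to 81.4 ± 39.3 TPM (SD, n = 2) in pEF, ranges that overlap as deposited. After scaling the sums were 37.5 ± 5.05 and 102 ± 15.0, which do not overlap.

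The log2 folds were -3.34 ± 0.53 (SE) for LMNA, 2.92 ± 0.56 for LMNB1 and 2.22 ± 0.58 for LMNB2. With each library left out the LMNA fold lay between -3.83 and -2.86. LMNB1 was no longer called without pEF replicate 1 (2.12), the library in which it was lowest. LMNB2 was no longer called without pEF replicate 1 (1.99) or pEF replicate 2 (2.44).

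Of the 9 genes, 5 were called higher in pgEpiSC (KRT8, KRT18, KRT7, LMNB1 and LMNB2), 3 lower (VIM, DES and LMNA) and 1, NES, was not called; 27.4% of all tested genes were called. The groups did not overlap for 8 of the 9, against 49.5% of all tested genes. Since the genes were proposed with this contrast in view, nothing is read from these counts. After median-ratio scaling 5 were higher and 4 lower and the groups overlapped for none, where 58.5% of all genes were called (28.6% higher and 29.8% lower) and 70.8% did not overlap. Without pEF replicate 1 the counts as deposited were 2 higher and 3 lower, and without pEF replicate 2 they were 3 and 3, with 8.95% and 11.0% of all genes called; the lone pEF library is then assumed to vary like the pgEpiSC group. KRT8 had the 13th and KRT18 the 18th largest fold of the 10424 genes, and DES, VIM and LMNA the 56th, 77th and 148th lowest. LMNB1 and LMNB2 stood at places 175 and 449 from the top and KRT7 at place 1201.

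**Figure D3:**
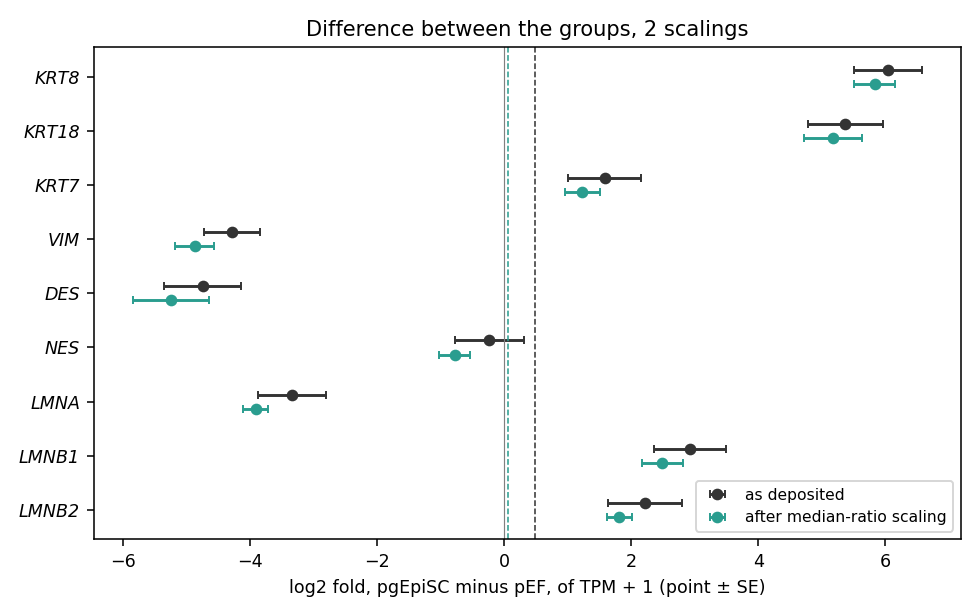
Log2 fold (pgEpiSC minus pEF, TPM + 1) of each gene with its standard error, as deposited (dark) and after median-ratio scaling (green); dashed lines mark the median of all tested genes on each scale, 0.48 and 0.06. The folds run from -4.75 for DES to 6.04 for KRT8 as deposited; scaling lowers every fold, and only NES moves from not called to called.

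By mean TPM the order in pgEpiSC was KRT8, KRT18, VIM, LMNB1, LMNB2, NES, LMNA, KRT7 and DES. The ranges of each neighbouring pair overlapped, but 6 of the 8 neighbouring pairs kept their order inside all 4 libraries. The exceptions were KRT18 over VIM, which held in 2 of 4 libraries, and LMNB2 over NES, which held in 1 of 4. In pEF the order was VIM, DES, LMNA, NES, LMNB1, LMNB2, KRT7, KRT8 and KRT18. There DES exceeded LMNA in 1 of 2 libraries, and each of the other 7 pairs kept its order in both. LMNB1 over LMNB2 and KRT8 over KRT18 held in both libraries although their ranges overlapped.

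The other listed filament genes that were found by symbol were nearly silent in both cell types. Of 5 other simple and transitional keratins 4 were found, KRT20, KRT80, KRT23 and KRT4, and none exceeded 0.155 TPM (KRT80, in pEF). Of 43 stratified, basal and hair keratins 27 were found, and 26 of them stayed below 1 TPM in every library. KRT10, a keratin of differentiating epidermis, was the exception at 0.782 ± 0.293 TPM (SD, n = 4) in pgEpiSC, with 1.14 TPM in library 2, and 0.330 ± 0.0978 TPM (SD, n = 2) in pEF. KRT5, KRT14 and KRT17 were among the 16 not analysed here. Of 9 other type III, IV and VI genes 6 were found; INA, alpha-internexin, was the most abundant at 0.646 ± 0.212 against 0.193 ± 0.0674 TPM, and BFSP1 reached 1.06 TPM in pgEpiSC library 2. No gene of these 3 lists passed the filter, so none was tested.

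Desmosomes anchor keratin filaments to cell junctions, and some of their genes were higher in pgEpiSC. Of 14 listed genes 13 were found and 8 tested. Of these 4 were called higher (DSP, DSG2, PERP and PKP4), 0 lower and 4 not called, beside 27.4% of all tested genes called (18.0% higher). Their median log2 fold was 1.41 beside 0.48 for all genes. DSG2, DSP and PKP3 reached 1 TPM in pgEpiSC alone, so that the filter fixed their direction. The partner lists here and below were chosen with earlier results of these data known. No p is given for their genes, and the counts support nothing. DSG2, a desmosomal cadherin, was at 19.3 ± 12.3 TPM (SD, n = 4) in pgEpiSC against 0.354 ± 0.311 TPM (SD, n = 2) in pEF (log2 fold 3.70 ± 0.58). DSP, desmoplakin, which binds the keratin filaments directly, was at 19.0 ± 16.4 against 0.711 ± 0.356 TPM (3.13 ± 0.62). PERP was at 16.2 ± 12.8 against 2.19 ± 0.0525 TPM (2.15 ± 0.58). DSC2, a desmocollin, was abundant in both, at 17.2 ± 10.7 and 16.1 ± 11.7 TPM, and was not called (0.05 as deposited and -0.51 after scaling). Without pEF replicate 1 only DSG2 stayed called, with DSP at 2.91 and PERP at 2.13 not called. Without pEF replicate 2 PERP was at 2.16, also not called. After scaling 5 were called higher and 0 lower, beside 58.5% of all tested genes called (28.6% higher and 29.8% lower).

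Linkers and chaperones of the filaments did not move as 1 group. Of 16 listed genes 12 were found and 9 tested. Of these 2 were called higher, 2 lower and 5 not called, beside 27.4% of all tested genes called. Their median log2 fold was 0.22. FAM83H and ITGB4 reached 1 TPM in pgEpiSC alone and CRYAB in pEF alone, which fixed their direction. CRYAB, a small heat shock protein that binds desmin, was at 0.246 ± 0.146 TPM in pgEpiSC against 12.7 ± 1.53 TPM in pEF (log2 fold -3.46 ± 0.50). HSPB1, a related chaperone, was at 9.37 ± 8.43 against 39.95 ± 16.5 TPM (-2.28 ± 0.58). FAM83H, which organises keratin filaments, was at 2.15 ± 1.61 against 0.0245 ± 0.00778 TPM (1.49 ± 0.45), and ITGB4, the integrin of hemidesmosomes, at 1.68 ± 1.65 against 0.0581 ± 0.0130 TPM (1.14 ± 0.43). Without pEF replicate 1 or 2 the calls of HSPB1 (-2.70 and -1.85), FAM83H (1.49 and 1.48) and ITGB4 (1.12 and 1.15) were lost. ITGB4 was also not called without pgEpiSC replicate 2 (0.78) or replicate 3 (1.01). After scaling 2 were higher, 3 lower and 4 not called, where 58.5% of all tested genes were called.

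Among partners of the lamina in the nuclear envelope the share of calls was near that of all tested genes (27.4%). Of 21 listed genes 19 were found and 16 tested; 4 were called higher (TMPO, LBR, SYNE2 and SYNE4), 0 lower and 12 not called, with a median log2 fold of 0.43. SYNE4 and NRM reached 1 TPM in pgEpiSC alone, which fixed their direction. LBR and SYNE2 reached it in only 1 pEF library and so passed through pgEpiSC, which fixes their direction in part. TMPO, which encodes lamina-associated polypeptide 2, was at 22.2 ± 10.6 against 3.55 ± 2.31 TPM (2.33 ± 0.54). LBR, the lamin B receptor, was at 9.44 ± 7.77 against 1.29 ± 1.01 TPM (1.91 ± 0.62). SYNE2, a nesprin of the link between nucleus and cytoskeleton, was at 5.53 ± 3.90 against 0.944 ± 0.754 TPM (1.59 ± 0.59). BANF1, a DNA-bridging factor of the re-forming envelope, was the most abundant of the list in both groups, at 64.9 ± 32.2 and 45.4 ± 18.2 TPM, and was not called. With pEF replicate 1 left out no gene of the list was called, with TMPO at 1.79, LBR at 1.44 and SYNE2 at 1.18. Without pEF replicate 2 LBR at 2.37 and SYNE2 at 1.99 were not called. Without pgEpiSC replicate 3 LBR at 1.65 and SYNE2 at 1.27 were not called. After scaling 5 were called higher and 5 lower, where 58.5% of all tested genes were called.

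The enzymes that farnesylate and trim the lamins were not called as deposited, where 27.4% of all tested genes were called. Of 5 listed genes 4 were found, and all 4 were tested. FNTB, a subunit of the farnesyltransferase, was at 0.979 ± 0.643 TPM (SD, n = 4) in pgEpiSC and 1.19 ± 0.260 TPM (SD, n = 2) in pEF. ZMPSTE24, the protease that matures prelamin A, was at 12.6 ± 4.98 and 10.1 ± 2.94 TPM, and ICMT, the methyltransferase of the farnesylated end, at 3.88 ± 2.76 and 3.88 ± 2.18 TPM. RCE1, another protease of this route, was at 4.93 ± 3.51 and 1.52 ± 0.379 TPM. After scaling RCE1 was called higher (0.61) and FNTB (-0.57) and ICMT (-0.58) lower, where 58.5% of all tested genes were called.

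All 8 genes for kinases and a caspase that act on lamins or on cytoplasmic filaments were tested. Of them 4 were called higher, 0 lower and 4 not called, beside 27.4% of all tested genes called (18.0% higher). Their median log2 fold was 1.23 beside 0.48 for all genes. PLK1 reached 1 TPM in only 1 pEF library and so passed the filter through pgEpiSC, which fixes its direction in part. CDK1, which phosphorylates lamins at mitosis, was at 54.8 ± 14.9 against 8.93 ± 3.92 TPM (2.51 ± 0.49). The mitotic kinases PLK1 and AURKB and the lamin-cleaving caspase CASP6 had folds of 2.75 ± 0.60, 1.85 ± 0.59 and 2.06 ± 0.53. The stress-fibre kinases ROCK1 and ROCK2, which also phosphorylate vimentin, were at 6.42 ± 3.19 and 7.55 ± 3.64 TPM in pgEpiSC against 12.0 ± 6.39 and 12.8 ± 9.30 TPM in pEF. They were not called as deposited (-0.81 and -0.60) and were called lower after scaling (-1.35 and -1.14). PAK1 and PAK2 were not called on either scale. Without pEF replicate 1 only CDK1 stayed called, with PLK1 at 2.20, AURKB at 1.32 and CASP6 at 1.96 not called. Without pEF replicate 2 AURKB at 2.38 and CASP6 at 2.16 were not called, and AURKB was also not called without pgEpiSC replicate 3 (1.72).

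Transcription and splicing factors of the epithelial state lay on both sides. Of 15 listed epithelial regulators, all in the table, 7 passed the filter, each through pgEpiSC alone, which fixed their direction, so their levels are a description with no p. ESRP1, an epithelial splicing factor, was at 8.57 ± 4.90 TPM (SD, n = 4) against 0.0226 ± 0.00183 TPM (SD, n = 2) in pEF (3.09 ± 0.57). OVOL2, a zinc finger factor that holds back mesenchymal genes, was at 6.84 ± 6.42 TPM in pgEpiSC, while either pEF library lists it at 0 (2.64 ± 0.59), and ESRP2 was at 2.80 ± 1.86 against 0.0271 ± 0.00737 TPM. KLF5 was at 1.34 ± 0.918 against 0.365 ± 0.370 TPM, groups that did not overlap. TFAP2A and GATA3, both below 1 TPM in every library and not tested, were higher in pEF with no overlap, at 0.00523 ± 0.00478 against 0.356 ± 0.240 TPM and 0.0262 ± 0.0124 against 0.296 ± 0.111 TPM. TP63 and CDX2 also stayed below 1 TPM throughout. With either pEF library left out OVOL2 and ESRP2 were no longer called, at 2.64 and 2.64 and at 1.75 and 1.76.

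Of 6 repressors of the epithelial state 4 were found and 2 tested. ZEB1, a repressor of E-cadherin, was at 0.184 ± 0.0523 against 5.92 ± 3.52 TPM (-2.45 ± 0.44); it reached 1 TPM in pEF alone, which fixed its direction. TWIST2 held 4.72, 8.82, 1.28 and 11.6 TPM in the stem cells and 9.62 and 9.23 TPM in the fibroblasts, overlapping values that were not called. SNAI1 and SNAI2 did not pass the filter; SNAI2 was at 0.0648 ± 0.0546 against 1.10 ± 1.002 TPM, and SNAI1 at 0.336 ± 0.236 against 0.905 ± 0.669 TPM.

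**Figure D4:**
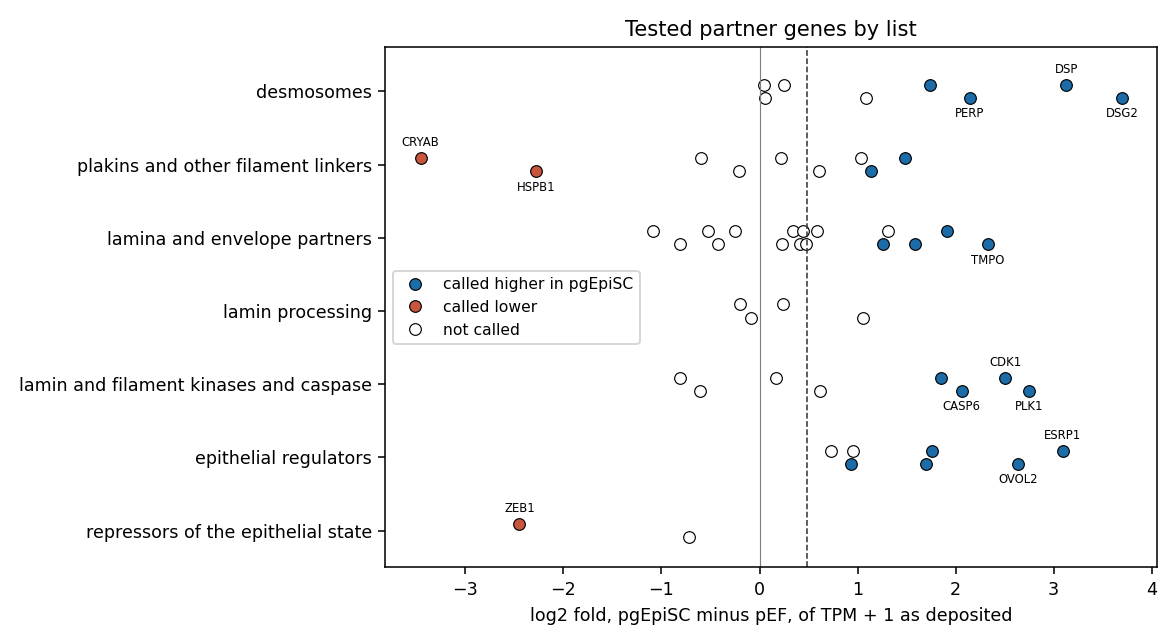
Log2 fold (pgEpiSC minus pEF, TPM + 1 as deposited) of every tested gene of 7 partner lists, 1 point per gene, filled where called; the dashed line marks the all-gene median of 0.48. Called genes of the desmosome, envelope, kinase and regulator lists lie to the right, from DSG2 at 3.70 down, and CRYAB, HSPB1 and ZEB1 lie to the left.

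The genes whose profile over the 6 libraries was most like that of KRT8 were TOM1L1, SORD, PTRH2, HELLS and PRSS12, with Pearson r between 0.997 and 0.998 on log2(TPM + 1). Those most like VIM were IER5L, PCP4L1, ELK3, CST3 and LOXL1, with r between 0.998 and 0.999. These correlations include the difference between the 2 groups, and the values of a library share its scale; after median-ratio scaling the r of PTRH2 with KRT8 was 0.886 and those of the other named genes lay between 0.963 and 0.999. Among the 9 genes themselves KRT8 and KRT18 had r = 0.990, LMNB1 and LMNB2 0.970 and VIM and LMNA 0.986 over the same 6 libraries. NES with KRT8 gave -0.05 as deposited and -0.83 after scaling.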

How the data were processed

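The authors deposited TPM for 20132 Ensembl gene rows, with 1 column per library. Per the submitters' processing notes, the tools were STAR 2.6.0c and kallisto 0.44.0; which made the TPM, and with what build and annotation, is not stated there. Libraries were strand-specific, per the labels' protocols, and averaged 127.83 M reads of 150 bp (126.01 M after quality filtering). Single-library depths are unknown. Gene names came from a table of Ensembl IDs (14062 rows matched, 69.85%), and rows that shared a symbol were summed. Genes with at least 1 TPM in at least 2 libraries (10424) were fitted as log2(TPM + 1) with limma 3.58.1 (R 4.3.3), group as the only factor and a variance trend, adjusted over all of them. Summaries used Python 3.11.15 with pandas 2.3.3. The fit was tested on data simulated from the values after median-ratio scaling. Differences in scale between the deposited libraries were therefore not part of that test. Genes given a known difference there were well expressed in pEF, unlike KRT8 and KRT18 here.

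The genes and lists were chosen with earlier results of these data known. Of each partner list the text names up to 3 genes called in each direction by fold and the most abundant gene of each group, and every gene of lists of at most 8, except 1 gene that is not reported here; PKP3, PKP4, SYNE4, NRM, BFSP1, TFAP2A, GATA3, TP63, CDX2 and the marker genes were named after their values were seen. Genes most like KRT8 and VIM are the 5 with the highest r. Alternatives were pseudocounts of 0.1 and 5, no filter, a mean of at least 5 TPM, median-ratio scaling, rescaling to 1000000, quantile normalization, no trend, a robust variance, a replicate block and each library left out; scaling combined with the last 2 was chosen after seeing the data.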

Additional observations from a re-analysis of the deposited data

Results flagged for a closer look

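KRT18 stood apart in 1 of the 4 pgEpiSC libraries: at 146 TPM in library 2 against 15.3 to 36.0 TPM in the others, its gap to the next library was 0.842 of the whole range and exceeded Dixon's 95% critical value for 4 samples. After median-ratio scaling the largest end gap was 0.378 of the range and no library stood apart. KLF5 stood apart in the same library, at 2.70 TPM against 0.714 to 1.04 TPM (0.835 of the range, 0.510 after scaling). These are 2 of 43 values examined, and chance flags about 1 in 20. The part of the library's overall scale in the KRT18 value was not tested beyond this scaling.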

How the results depend on the processing

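Over all alternatives, 188 of 206 refitted folds of the 9 genes kept their direction and their side of the threshold, 10 lost and 7 gained a call, and 1 turned sign (NES, 0.46 without pEF replicate 2; its range with 1 library left out was -0.93 to 0.46). The genes called higher (1874) were 967 at a pseudocount of 5, 787 with no filter, 1185 at a mean of at least 5 TPM, 2985 after median-ratio scaling and 3662 after quantile normalization. Those called lower (983) were 368 at a mean of at least 5 TPM and 3109, 2924 and 2722 after median-ratio scaling, rescaling and quantile normalization. With each library left out the counts ran from 252 to 2270 higher and from 555 to 1367 lower; combined with scaling, from 1897 to 3116 higher and 2826, 3213, 2957, 2907, 2632 and 2623 lower (without pgEpiSC replicates 1 to 4, then pEF 1 and 2). With no filter 3 of the 9 genes were called higher (5 with it), as KRT7 and LMNB2 were not called; with a library left out 2 to 5 were. Adding 1 TPM to each gene moved the pEF means of the keratin share to 0.398%, of the LMNA share to 92.4% and of log2 KRT8 to KRT18 from 2.04 to 0.16, since both keratins are near 0 there.

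Uncalled partner genes turned sign as follows. After median-ratio scaling, rescaling and quantile normalization BANF1 was at -0.14, -0.36 and -0.16, DSC2 at -0.51, -0.75 and -0.38, PAK2 at -0.33, -0.60 and -0.12 and ZMPSTE24 at -0.31, -0.55 and -0.17; rescaling also turned PAK1 (-0.12). With 1 library left out the ranges were -0.70 to 0.81 for DSC2, -0.56 to 0.38 for ICMT, -0.24 to 0.57 for PAK2, -1.35 to 0.15 for ROCK2 and -0.035 to 0.51 for ZMPSTE24. The cause of these turns was not tested.

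The replicate numbers pair no samples by the labels. Same-numbered libraries correlated at 0.07 and 0.11 in their deviations from the group means after scaling, and pgEpiSC replicate 4 with pEF replicate 1 at 0.13. The deviations of the pEF libraries mirror each other by construction, so these values cannot show whether libraries were paired. A replicate block gave 2204 higher and 893 lower calls with 5 and 3 of the 9 genes. DSC2 (-0.061) and ICMT (0.11) turned sign without being called. Only replicates 1 and 2 occur in both groups, so the folds with this block rest on those libraries. The block terms take up pgEpiSC replicates 3 and 4. With scaling it gave 2375 higher and 2580 lower. The depth of each library is unknown, so no limit from read sampling can be given.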
